A study of Mus musculus with 6 samples.

Results

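Glucocorticoid response genes were read from RNA-seq of cerebellum, taken from male mice aged 6 weeks. The set holds 9 of the 24537 genes listed in each library: Fkbp5, Sgk1, Tsc22d3, Cdkn1a, Zbtb16, Pdk4, Hif3a, Errfi1 and Plin4. They were chosen by gene symbol, as genes that corticosterone induces in brain, and all 9 symbols were found in all 6 libraries. The HET group was 3 libraries from mice carrying 1 null allele of Reln, with the strain given as Orl/BalbC. The WT group was 3 libraries from wild-type mice, with the strain given as C57BL/6. Genotype and strain label differ together, so their effects cannot be told apart. No hormone treatment, stressor or hour of collection is given in the labels, and nothing in them says that each library is a different animal. The p-values below therefore measure only the spread between these libraries, which may be technical.

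Corticosterone, the main glucocorticoid of mice, is released from the adrenal gland in a daily rhythm and in response to stress. In the cell it binds the glucocorticoid receptor, encoded by Nr3c1, which is held ready by the chaperone Hsp90 and its partners. The bound receptor enters the nucleus and acts at DNA elements near its target genes. Levels of such targets in brain tissue are commonly read as a trace of recent hormone exposure. Each member also answers to other signals, so its level is not specific to the hormone.

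Values are FPKM, which count the fragments of a gene relative to its exon length and to the depth of the library and so allow levels of different genes to be compared per length. A log2 difference below is the HET minus WT difference in mean log2(FPKM + 1), a scale that understates changes of genes far below 1 FPKM. The spacing of the lowest values gave approximate depths of 22480000 to 26740000 reads in HET libraries and 27180000 to 28600000 reads in WT libraries. These depths are estimates picked for the best fit, and their difference between groups was not tested. In bulk tissue, fewer cells of a type and less RNA per cell cannot be told apart. Defining markers of cerebellum were present in every library. The 10 granule cell markers summed to 631 to 662 FPKM in HET libraries and 588 to 671 FPKM in WT libraries. The 8 Purkinje cell markers summed to 241 to 251 FPKM in HET libraries and 186 to 260 FPKM in WT libraries. Reln, the gene with the null allele, had 0.540 ± 0.037 FPKM in HET and 0.848 ± 0.086 FPKM in WT libraries (SD, n = 3 each), with no overlap (exact permutation p = 0.1, two-sided, the smallest that 3 against 3 libraries allow).

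The DNA sequences that bear on hormone response are the windows around the members' transcription starts. The glucocorticoid receptor binds as a dimer to a palindrome, AGAACA and TGTTCT with 3 bases of any kind between them. The palindrome, whose fixed letters are the same on both strands, was searched in RefSeq windows from 250 bases before to 50 bases after each annotated start (GRCm38.p6). Of the 9 members, 8 had 17 windows in that table, and Zbtb16 had none. Among all 32851 windows only 3 (0.00913%) held the palindrome, and 1 of these belonged to Sgk1. Its match lies on chromosome 10, 21993701 to 21993715, beginning 189 bases before a start of Sgk1. A single hexamer arm, AGAACA on either strand, is far more common and was found in 19% of windows and for 21.3% of genes. Of the 8 members with windows, Sgk1 and Tsc22d3 held such an arm. The E-box CACGTG, which circadian clock proteins bind, was found in 7.15% of windows and for 8.09% of genes. Among the members it was found in windows of Sgk1 and Fkbp5. In the Sgk1 window it overlaps an arm by 2 bases. The element was searched as exact letters, and a match is not a measured binding site. Elements of the receptor can also lie in introns and far from the start, which these windows do not cover. The first sequence is shown because it holds the whole palindrome (capitals). The second is shown for its lone arm, and the third, of Fkbp5, for its E-box.
Sgk1, chr10:21993640-21993939, plus strand: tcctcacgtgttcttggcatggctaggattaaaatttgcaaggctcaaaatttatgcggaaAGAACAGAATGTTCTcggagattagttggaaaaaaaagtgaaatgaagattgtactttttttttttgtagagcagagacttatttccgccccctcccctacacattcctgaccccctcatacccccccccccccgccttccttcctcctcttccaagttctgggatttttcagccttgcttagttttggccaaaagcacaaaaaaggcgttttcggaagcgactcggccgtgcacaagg
Tsc22d3, chrX:140600473-140600772, minus strand: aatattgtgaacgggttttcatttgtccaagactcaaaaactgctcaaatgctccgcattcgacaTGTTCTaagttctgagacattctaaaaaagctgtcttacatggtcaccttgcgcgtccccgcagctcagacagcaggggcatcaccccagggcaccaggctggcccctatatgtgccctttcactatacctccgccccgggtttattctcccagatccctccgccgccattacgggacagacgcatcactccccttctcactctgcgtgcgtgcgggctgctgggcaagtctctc
Fkbp5, chr17:28486100-28486399, minus strand: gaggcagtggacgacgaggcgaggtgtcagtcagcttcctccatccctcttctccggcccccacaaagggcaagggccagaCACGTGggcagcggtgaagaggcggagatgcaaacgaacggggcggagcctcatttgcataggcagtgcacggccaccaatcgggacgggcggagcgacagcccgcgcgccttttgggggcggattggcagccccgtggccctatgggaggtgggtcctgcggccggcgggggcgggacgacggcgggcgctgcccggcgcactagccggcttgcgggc

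The members spanned a wide range of levels, and none was abundant. Errfi1 was highest, with a mean of 3.55 FPKM over the 6 libraries, followed by Tsc22d3 at 1.45 and Cdkn1a at 1.04 FPKM. Sgk1 averaged 0.560 FPKM, Pdk4 0.422 FPKM and Plin4 0.322 FPKM. The lowest were Hif3a at 0.116 FPKM, Fkbp5 at 0.0955 FPKM and Zbtb16 at 0.0663 FPKM. That order held in every library but for neighbours at 2 places: Pdk4 and Plin4, and Hif3a and Fkbp5, changed places between libraries. Fkbp5 and Zbtb16 were nearly equal in WT replicate 2.

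Between genotypes, no member passed the test. Only 3 members, Tsc22d3, Cdkn1a and Errfi1, had a mean of at least 1 FPKM, the minimum for testing. In limma with Benjamini-Hochberg adjustment 0 of these 3 passed an adjusted p of 0.05, against 0.0786% of the 6358 genes tested. At an unadjusted p under 0.05 there was 1 member, Tsc22d3, against 3.33% of genes, and limma without an intensity trend also called 0. With no filter on low values all 9 members entered the fit and 0 passed, against 0.00513% of 19511 genes. HET and WT values overlapped for all 9 members, while 5.91% of the 13387 genes averaging 0.05 FPKM or more, as all 9 members do, showed no overlap. The HET mean was the higher for 8 of 9 members, against 74.0% of those genes, and for 7 of 9 after median-of-ratios scaling of the libraries, against 43.2% of those genes. The median log2 difference of the 9 members was 0.052, beside 0.033 over the same genes. After that scaling the medians were 0.032 and -0.0069.

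**Figure D1:**
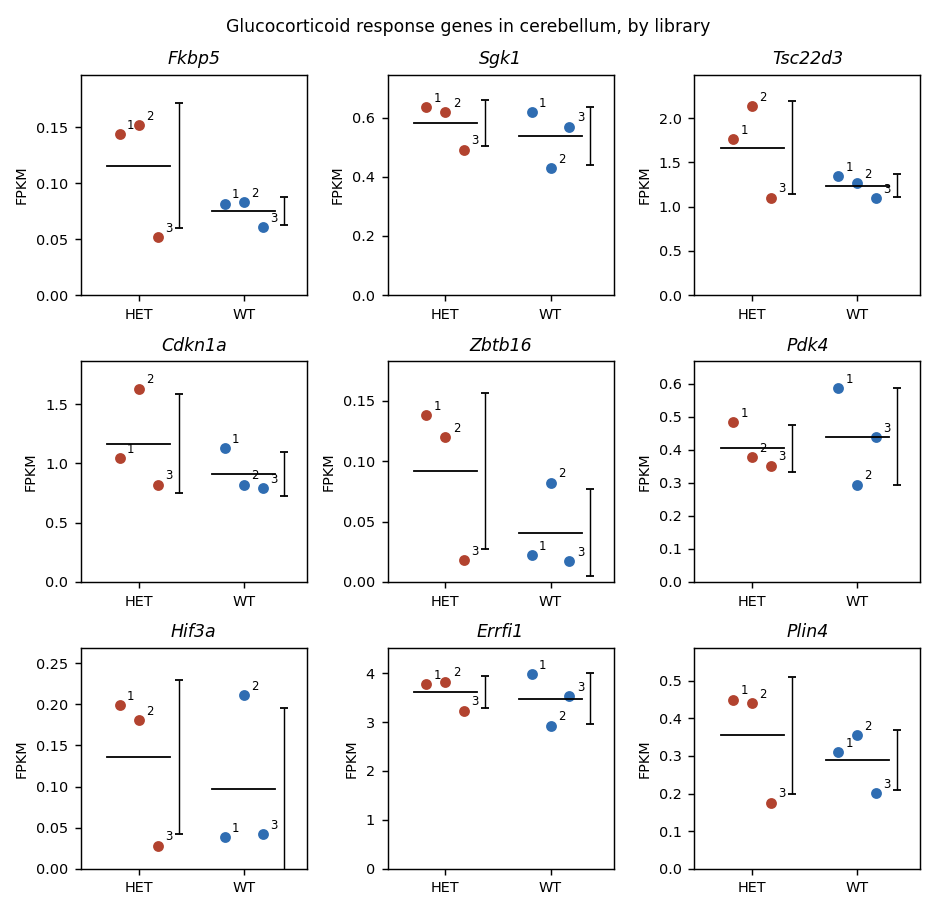
FPKM of each of the 9 members (y axis, from 0) in HET (red) and WT (blue) cerebellum; points are libraries with their replicate number, horizontal lines are group means, and bars at the side show 1 SD, which stops at 0 for Hif3a. HET replicate 3 lies well below HET replicates 1 and 2 for Fkbp5, Zbtb16, Hif3a and Plin4, and WT replicate 2 is the highest WT library for Zbtb16, Hif3a and Plin4.

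Fkbp5 encodes FKBP51, an Hsp90 co-chaperone that lowers the receptor's affinity for hormone, so its induction forms a feedback loop. It lies on chromosome 17, 28399094 to 28517527 (minus strand, mm10). Fkbp5 had 0.144, 0.152 and 0.0515 FPKM in HET replicates 1, 2 and 3, against 0.0818, 0.0830 and 0.0608 FPKM in WT replicates 1, 2 and 3. The highest and the lowest of the 6 values were thus both HET libraries. Its HET mean was 1.54 times the WT mean, with a log2 difference of 0.052 (exact permutation p = 0.4, two-sided). For Fkbp5 that difference was 0.034 without HET replicate 1, 0.029 without HET replicate 2 and 0.094 without HET replicate 3. At these levels Fkbp5 rested on about 4.47 to 15.7 reads per library, with a counting error of 25.3% to 47.3%. Read numbers here use the longest coding transcript in GENCODE M21 and the estimated depths, so they are approximate, and their errors cover counting only. Other annotated genes overlap Fkbp5, Hif3a, Cdkn1a and Errfi1, and without a stated strand setting their reads may be mixed with those of the member.

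The transcription regulators of the set are Tsc22d3, Zbtb16 and Hif3a. Tsc22d3 encodes GILZ, a leucine zipper protein that carries part of the anti-inflammatory action of glucocorticoids. It lies on chromosome X, 140539528 to 140600659 (minus strand). Tsc22d3 had 1.76, 2.14 and 1.10 FPKM in HET replicates 1, 2 and 3, against 1.35, 1.26 and 1.09 FPKM in WT replicates 1, 2 and 3. The 2 highest libraries were HET, while HET replicate 3 lay among the WT values. Its mean was 1.67 ± 0.52 FPKM in HET and 1.24 ± 0.13 FPKM in WT (SD, n = 3 each). On the log2 scale HET stood 0.24 above WT (SE 0.11, limma adjusted p = 0.90, exact permutation p = 0.3). Without HET replicate 2 the log2 difference was 0.11 and without HET replicate 3 it was 0.40. The limma adjusted p of Tsc22d3 was 0.106 without HET replicate 3, the lowest over its alternatives, which reached 1.00.

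Zbtb16 encodes PLZF, a zinc finger repressor that is strongly hormone-induced in several tissues. It lies on chromosome 9, 48654297 to 48836222 (minus strand). Zbtb16 had 0.138, 0.120 and 0.0178 FPKM in HET replicates 1, 2 and 3, against 0.0223, 0.0822 and 0.0173 FPKM in WT replicates 1, 2 and 3. The values fell into 3 libraries at 0.0822 FPKM or above, HET replicates 1 and 2 and WT replicate 2, and the other 3 at 0.0223 FPKM or below. Its highest value was 7.97 times its lowest, while the ratio of group means was 2.27 and the exact permutation p was 0.3. The log2 difference of Zbtb16 was 0.068, with 0.038 when HET replicate 1 was left out and 0.12 when HET replicate 3 was. About 16.4 and 17.5 reads stood behind the HET replicates 2 and 1, and about 11.4 behind WT replicate 2. The other 3 libraries had about 2.05 to 3.18 reads each.

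Hif3a encodes a subunit of the hypoxia-inducible factor family that can damp the action of its relatives. It lies on chromosome 7, 17031507 to 17062427 (minus strand). Hif3a had 0.199, 0.181 and 0.0278 FPKM in HET replicates 1, 2 and 3, against 0.0381, 0.211 and 0.0423 FPKM in WT replicates 1, 2 and 3. The same 3 libraries as for Zbtb16 were high, here led by WT replicate 2. The highest value was 7.58 times the lowest, and the ratio of group means was 1.40 (exact permutation p = 1, two-sided). Its log2 difference of 0.050 moved by over 1.5 times whichever library was left out, between 0.0098 without HET replicate 1 and 0.12 without WT replicate 2. The 3 high libraries held about 31.0 to 36.7 reads of Hif3a and the 3 low ones about 4 to 7.74. The 95% Poisson interval of HET replicate 1 began at 21.6 reads and that of WT replicate 2 at 25.8 reads, against an upper bound of 15.4 reads in WT replicate 3, the highest bound among the 3 low libraries.

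**Figure D2:**
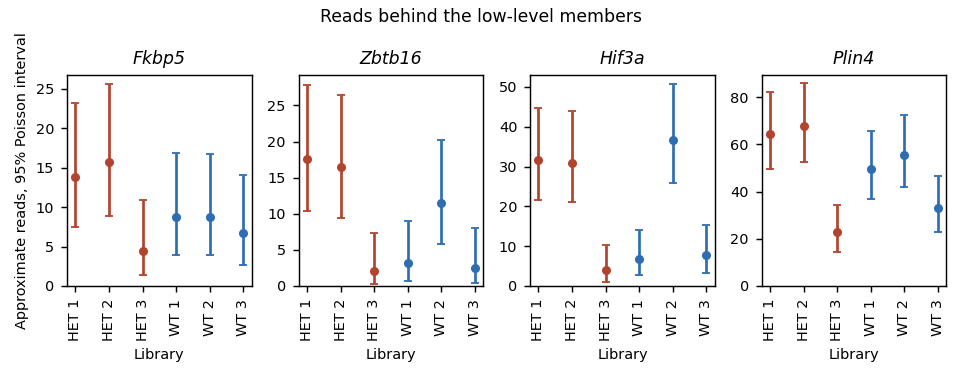
Approximate reads (y axis, from 0) of 4 low-level members in each library, HET (red) left of WT (blue), with 95% Poisson intervals that cover counting error only. For Hif3a the intervals of HET 1, HET 2 and WT 2 lie above those of the other 3 libraries, while for Fkbp5 all intervals overlap.

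The members that act on signalling and the cell cycle are Sgk1, Errfi1 and Cdkn1a. Sgk1 encodes a kinase that raises the activity of ion channels and transporters. It lies on chromosome 10, 21882184 to 21999903 (plus strand), and carries the palindrome printed above. Sgk1 had 0.634, 0.619 and 0.492 FPKM in HET replicates 1, 2 and 3, against 0.618, 0.429 and 0.569 FPKM in WT replicates 1, 2 and 3. The groups overlapped over most of their ranges, with a ratio of means of 1.08 (log2 difference 0.040, exact permutation p = 0.5, two-sided). That ratio was 1.00 after median-of-ratios scaling, and the log2 difference turned to -0.012 without WT replicate 2. Its highest value was only 1.48 times its lowest, close to the median of 1.46 over the 13387 genes.

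Errfi1 encodes MIG6, an inhibitor of the epidermal growth factor receptor, and lies on chromosome 4, 150853919 to 150868892 (plus strand). Errfi1 had 3.78, 3.83 and 3.23 FPKM in HET replicates 1, 2 and 3, against 3.97, 2.93 and 3.53 FPKM in WT replicates 1, 2 and 3. Highest and lowest values were both WT libraries. The log2 difference was 0.047 (SE 0.13, limma adjusted p = 0.93). After median-of-ratios scaling Errfi1 stood at -0.044. With about 221 to 337 reads per library it was the most precisely counted member, at a counting error of 5.45% to 6.72%.

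Cdkn1a encodes p21, an inhibitor of cyclin-dependent kinases that p53 also induces. It lies on chromosome 17, 29090976 to 29100727 (plus strand). Cdkn1a had 1.05, 1.63 and 0.821 FPKM in HET replicates 1, 2 and 3, against 1.13, 0.821 and 0.789 FPKM in WT replicates 1, 2 and 3. HET replicate 2 stood above all others, and the remaining 5 libraries were mixed. The log2 difference was 0.17 (SE 0.096, limma adjusted p = 0.90, exact permutation p = 0.6). Median-of-ratios scaling gave 0.10 for Cdkn1a, and leaving out HET replicate 3 gave 0.28. Without HET replicate 2 its mean fell under the minimum of 1 FPKM, so it was not tested, and its log2 difference was 0.017.

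The metabolic members are Pdk4 and Plin4. Pdk4 encodes a kinase that shuts off pyruvate dehydrogenase and so spares glucose, and lies on chromosome 6, 5483351 to 5496309 (minus strand). Pdk4 had 0.483, 0.377 and 0.352 FPKM in HET replicates 1, 2 and 3, against 0.586, 0.294 and 0.439 FPKM in WT replicates 1, 2 and 3. It was the only member with a lower HET mean on the deposited scale, with a log2 difference of -0.032 (exact permutation p = 0.7, two-sided), which turned to 0.040 without WT replicate 1. Plin4 encodes a perilipin, a coat protein of lipid droplets, and lies on chromosome 17, 56100591 to 56109803 (minus strand). Plin4 had 0.449, 0.441 and 0.175 FPKM in HET replicates 1, 2 and 3, against 0.310, 0.356 and 0.201 FPKM in WT replicates 1, 2 and 3. Its 3 highest libraries were again HET replicates 1 and 2 and WT replicate 2, with a narrower step to WT replicate 1 than for Zbtb16 or Hif3a. The ratio of group means was 1.23 (log2 difference 0.068, exact permutation p = 0.6, two-sided). Leaving out 1 library moved it to between 0.016, without HET replicate 1, and 0.17, without HET replicate 3. It was 0.032 after median-of-ratios scaling, 0.020 without HET replicate 2, 0.018 without WT replicate 3 and 0.11 without WT replicate 2. The tail of Plin4 overlaps that of Hdgfl2 on the other strand, listed under its older name Hdgfrp2. Hdgfrp2 was steady at 1.83 ± 0.21 FPKM in HET and 1.76 ± 0.16 FPKM in WT (SD, n = 3 each).

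Across the set the members thus fell into different orders of libraries within the genotypes. This grouping was noticed after the values were seen and carries no test. For Fkbp5, Zbtb16, Hif3a and Plin4 the 3 highest libraries were HET replicates 1 and 2 and WT replicate 2. That is 4 of 9 members (44.4%), while 295 of the 13387 genes averaging 0.05 FPKM or more (2.2%) had the same 3 libraries on top. For 0 of 9 members were these 3 the lowest, against 7.25% of those genes. WT replicate 2 had the smallest scaling factor, 0.840, and HET replicate 2 the largest, 1.14. After median-of-ratios scaling Tsc22d3 joined, making 5 of 9 members against 8.19% of genes. Its scaled values were 1.75, 1.88 and 1.12 FPKM in HET replicates 1, 2 and 3 and 1.25, 1.51 and 1.12 FPKM in WT replicates 1, 2 and 3.

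Other genes known to be induced by glucocorticoids were read from a list of 27, and none passed the limma test. Of the 17 tested, 13 had a higher and 4 a lower HET mean, with a median log2 difference of 0.20 against 0.083 for all genes tested and 83.1% of those higher in HET. After median-of-ratios scaling 12 were higher and 5 lower, with a median of 0.097 against -0.0014, when 49.1% of all genes were higher. At an unadjusted p under 0.05 there were 3, against 3.33% of all genes tested, and these are also the genes of smallest p. Arl4d, a small GTPase of the ARF family, had 2.52 ± 0.45 FPKM in HET and 1.88 ± 0.32 FPKM in WT (SD, n = 3 each; log2 difference 0.29, SE 0.12, limma adjusted p = 0.90). Sult1a1, a sulfotransferase, had 1.67 ± 0.50 FPKM in HET and 1.25 ± 0.36 FPKM in WT (log2 difference 0.24, SE 0.11, limma adjusted p = 0.90). Dusp1, a phosphatase that switches off MAP kinases and is also an immediate early gene, had 17.2 ± 8.4 FPKM in HET and 21.9 ± 6.0 FPKM in WT (log2 difference -0.42, SE 0.21, limma adjusted p = 0.90). Its exact permutation p was 0.6, two-sided. The limma SE draws on the spread of all genes, and the pooled SD of Dusp1 itself within groups was 0.63 on the log2 scale.

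**Figure D3:**
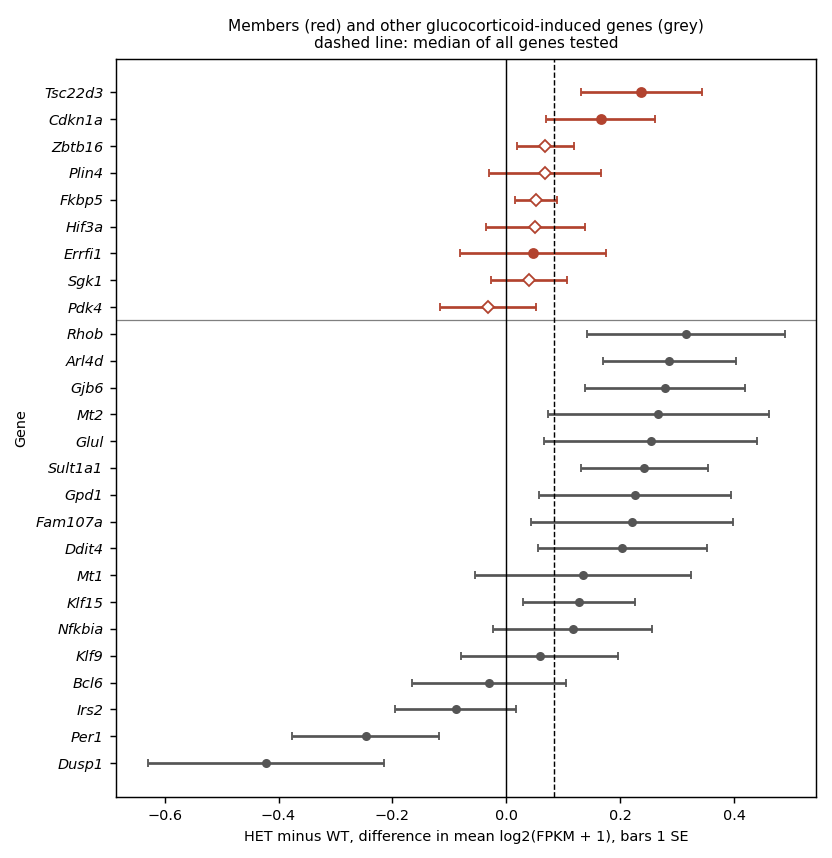
HET minus WT difference in mean log2(FPKM + 1) with 1 SE from limma, for the 9 members (red; open diamonds are members under 1 FPKM, taken from the fit with no filter) and the 17 other glucocorticoid-induced genes tested (grey). The solid line marks 0 and the dashed line the median of all genes tested, 0.083; Tsc22d3 is the member farthest to the right at 0.24, and Dusp1 lies farthest to the left at -0.42.

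In that list, 3 genes chosen after their values were seen had the same 3 highest libraries as Zbtb16 on the deposited scale: Map3k6, Arrdc2 and Mertk, or 11.1% of 27 against 2.2% of all genes. Map3k6, a MAP kinase kinase kinase, had 0.184, 0.161 and 0.0505 FPKM in HET replicates 1, 2 and 3, against 0.0523, 0.0922 and 0.0548 FPKM in WT replicates 1, 2 and 3. Arrdc2, an arrestin domain protein, had 1.44, 1.25 and 0.639 FPKM in HET replicates 1, 2 and 3, against 0.791, 1.02 and 0.641 FPKM in WT replicates 1, 2 and 3. For both, HET replicate 3 and WT replicates 1 and 3 were low. After scaling 8 of the 27 (29.6%) had them, among them Klf15, Gjb6, Mt2 and Sult1a1, against 8.19% of all genes. For Dusp1 and Irs2 those 3 libraries were the lowest, 7.41% of the list against 7.25% of all genes, so near the background.

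Genes of the receptor and of its ligand's supply overlapped between genotypes. Nr3c1, the glucocorticoid receptor gene, had 1.82, 2.08 and 1.92 FPKM in HET replicates 1, 2 and 3, against 2.17, 1.53 and 1.95 FPKM in WT replicates 1, 2 and 3 (log2 difference 0.033, SE 0.11, limma adjusted p = 0.94). The HET values lay inside the WT range. Nr3c2, the mineralocorticoid receptor gene, which has the higher affinity for corticosterone, was scarce, at 0.0716 ± 0.0007 FPKM in HET and 0.0736 ± 0.014 FPKM in WT (SD, n = 3 each, exact permutation p = 0.7). Hsd11b1, which regenerates active hormone in the cell, had 1.13 ± 0.23 FPKM in HET and 0.992 ± 0.11 FPKM in WT (SD, n = 3 each, limma adjusted p = 0.90). Of the 9 receptor and supply genes 2 were tested and 0 passed in limma, also at an unadjusted p under 0.05. Their median was 0.062 against 0.083 for all genes tested, and -0.0062 after median-of-ratios scaling, with 1 higher and 1 lower. Serpina6, the gene of the plasma carrier of corticosterone, was listed at 0 in every library.

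Chaperones and cofactors of the receptor held no call in limma, also at an unadjusted p under 0.05: 12 of 17 were tested, 9 higher and 3 lower in HET, with a median of 0.13, when 83.1% of all genes tested were higher. After median-of-ratios scaling 8 were higher and 4 lower, with a median of 0.027. Fkbp4, the co-chaperone that competes with the Fkbp5 product and helps the receptor reach the nucleus, had 19.2 ± 2.6 FPKM in HET and 17.3 ± 2.8 FPKM in WT (SD, n = 3 each; log2 difference 0.14, SE 0.16, limma adjusted p = 0.90). It stood far above Fkbp5 per length in every library, and its highest and lowest values differed far less than those of Fkbp5. In the list of stress axis hormones and their receptors 1 of 8 genes, Crhr1, was tested and did not pass (log2 difference 0.031, SE 0.090, limma adjusted p = 0.94).

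Paralogs of the members were read beside them, and none of the 9 tested of 18 passed in limma. On the deposited scale 7 were higher and 2 lower in HET, when 83.1% of all genes tested were higher. The median of these paralogs was 0.082, with 0 at an unadjusted p under 0.05. After median-of-ratios scaling 5 were higher and 4 lower, with a median of 0.0023 and 1 at an unadjusted p under 0.05. The highest value of Hif1a was 1.31 times its lowest, of Pdk2 1.27 times and of Cdkn1b 1.34 times, against 7.58 times for Hif3a, 1.99 for Pdk4 and 2.06 for Cdkn1a. For Sgk3 it was 1.90 times, against 1.48 for Sgk1, and for Cdkn1c, another relative of Cdkn1a, it was 2.96 times. Hif1a, Pdk2 and Cdkn1b stood well above their members in level, and counting error is larger at low levels. Hif1a, the oxygen-regulated relative of Hif3a, had 6.15 ± 0.13 FPKM in HET and 5.94 ± 0.81 FPKM in WT (SD, n = 3 each, limma adjusted p = 0.93). Pdk2 stood at 5.84 ± 0.17 FPKM in HET and 5.62 ± 0.67 FPKM in WT (limma adjusted p = 0.93), and Cdkn1b, the gene of p27, at 21.1 ± 1.4 FPKM in HET and 18.2 ± 2.1 FPKM in WT (limma adjusted p = 0.90). Tsc22d4 had 2.92 ± 0.13 FPKM in HET and 2.66 ± 0.39 FPKM in WT, Plin3 1.74 ± 0.35 and 1.44 ± 0.35 FPKM in HET and WT, and Zbtb7a 5.27 ± 0.33 and 5.83 ± 0.78 FPKM in HET and WT, all with a limma adjusted p of 0.90. Sgk3 was as scarce as Fkbp5, at 0.0970 ± 0.010 FPKM in HET and 0.0851 ± 0.026 FPKM in WT (SD, n = 3 each). None of the 15 paralogs averaging 0.05 FPKM or more had HET replicates 1 and 2 and WT replicate 2 as its 3 highest libraries, on either scale. Over all genes the share was 2.2% as deposited and 8.19% after median-of-ratios scaling, so on this count the paralogs were near the background. The same libraries were the 3 lowest for 3 of these 15 paralogs (20%) as deposited, against 7.25% of all genes. After scaling the shares were 13.3% and 11.3%.

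Corticosterone follows the daily rhythm and stress, so genes of the clock and immediate early genes were set beside the members, library by library. Among the 15 clock genes averaging 0.05 FPKM or more, 5 (33.3%, against 2.2% of all genes) had the same 3 highest libraries as Zbtb16: Dbp, Tef, Nr1d1, Nr1d2 and Ciart, named after their values were seen. Dbp, a clock-controlled transcription factor with a strong daily rhythm, had 15.6, 15.9 and 8.28 FPKM in HET replicates 1, 2 and 3, against 8.72, 13.6 and 7.95 FPKM in WT replicates 1, 2 and 3. Ciart, a repressor of the clock, had 3.23, 5.10 and 1.20 FPKM in HET replicates 1, 2 and 3, against 1.48, 2.61 and 1.48 FPKM in WT replicates 1, 2 and 3. These are the libraries in which Zbtb16 and Hif3a were high. For Arntl, Clock and Nfil3 those 3 libraries were the lowest, 20% of the 15 against 7.25% of all genes. After median-of-ratios scaling the shares were 26.7% and 11.3%. None of the 11 clock genes tested passed between genotypes in limma (1 at an unadjusted p under 0.05, against 3.33% of all genes tested). Of these clock genes 8 were higher and 3 lower in HET, with a median of 0.11. Of all genes tested 83.1% were higher before scaling and 49.1% after, when 6 clock genes were higher and 5 lower.

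Immediate early genes, which neurons switch on within minutes of activity, held many that ran against Zbtb16 and Hif3a. In 8 of the 17 averaging 0.05 FPKM or more (47.1%, against 7.25% of all genes) HET replicates 1 and 2 and WT replicate 2 were the 3 lowest libraries: Fos, Fosb, Fosl2, Nr4a1, Nr4a2, Nr4a3, Npas4 and Dusp1. Nr4a2, an orphan nuclear receptor gene, had 0.484, 0.708 and 2.37 FPKM in HET replicates 1, 2 and 3, against 2.49, 0.481 and 2.73 FPKM in WT replicates 1, 2 and 3. Fos had 1.499, 13.4 and 25.0 FPKM in HET replicates 1, 2 and 3, against 21.9, 4.89 and 24.1 FPKM in WT replicates 1, 2 and 3, so HET replicate 2 was intermediate. Per1, which belongs to the clock and is induced by both hormone and activity, had 1.99, 2.54 and 2.41 FPKM in HET replicates 1, 2 and 3, against 3.34, 2.00 and 3.64 FPKM in WT replicates 1, 2 and 3. Its order was thus nearer to that of Nr4a2 than to that of Zbtb16. Of the 12 immediate early genes tested 6 were higher and 6 lower in HET, and the median was 0.018. None passed in limma (3 at an unadjusted p under 0.05, against 3.33% of all genes tested). After scaling 2 were higher and 10 lower. The part of collection time or activity in the members' levels was not tested, since the labels give neither.

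**Figure D4:**
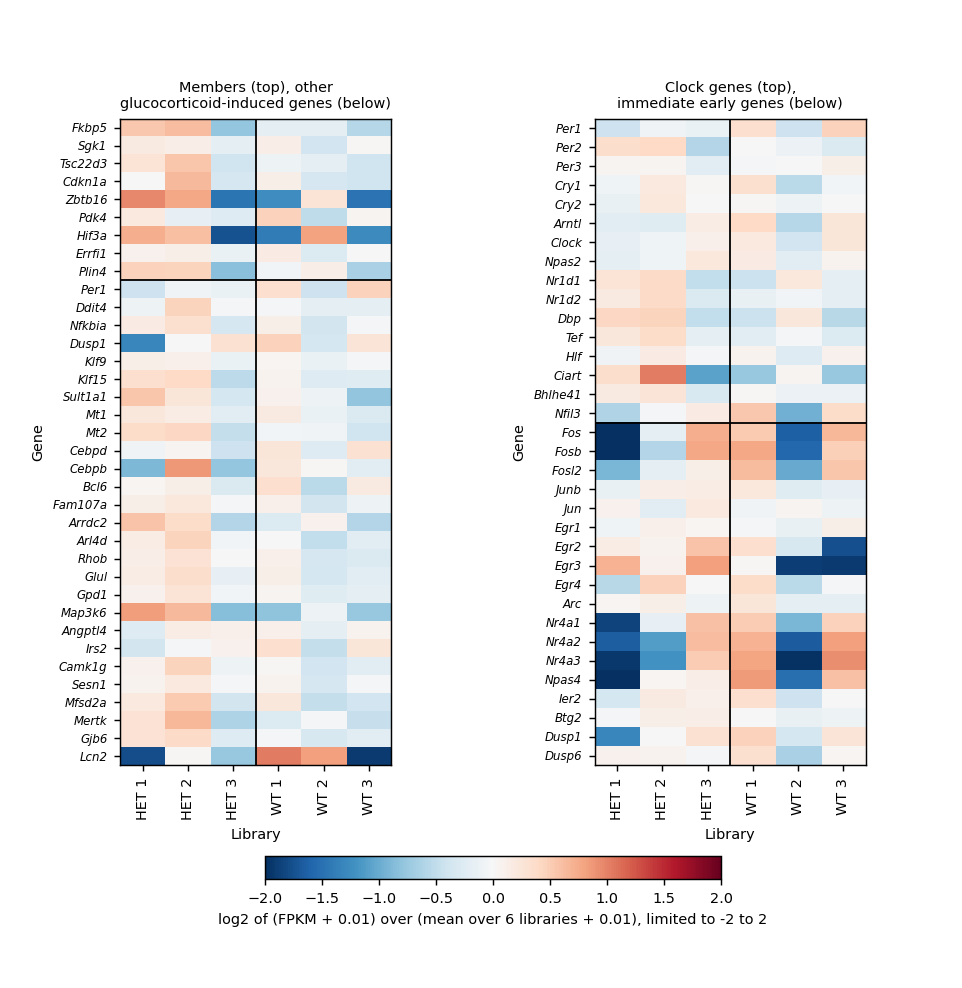
Level of each gene in each library relative to its mean over the 6 libraries (colour, log2 ratio with 0.01 added to both, red above and blue below the mean), HET columns left of WT. Left panel: the 9 members above the 27 other glucocorticoid-induced genes; right panel: 16 clock genes above 18 immediate early genes. Red cells in HET 1, HET 2 and WT 2 mark Zbtb16 and Hif3a as well as Dbp and Nr1d1, and blue cells in the same libraries mark Nr4a2, Nr4a3 and Fosb.

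Markers of cell types that can carry the members were read in the same libraries. Choroid plexus differed most: its 8 markers summed to 4.39, 164 and 7.91 FPKM in HET replicates 1, 2 and 3, against 288, 1.30 and 159 FPKM in WT replicates 1, 2 and 3. HET replicate 1 and WT replicate 2, high for Hif3a, were low for these markers, and WT replicates 1 and 3, low for Hif3a, were high. HET replicate 2 was high for both Hif3a and these markers, and HET replicate 3 was low for both. The 10 endothelial and pericyte markers summed to 15.1 to 19.1 FPKM in HET and 13.1 to 23.2 FPKM in WT libraries. For the 10 oligodendrocyte markers the sums were 203 to 271 FPKM in HET and 154 to 244 FPKM in WT libraries. The 8 astrocyte and Bergmann glia markers summed to 508 to 576 FPKM in HET and 385 to 562 FPKM in WT libraries. Microglia (8 markers) gave 10.2 to 18.4 FPKM in HET and 7.55 to 13.2 FPKM in WT, meninges (6 markers) 6.41 to 9.95 FPKM in HET and 4.16 to 11.4 FPKM in WT. Blood (7 markers) gave 159 to 271 FPKM in HET and 142 to 395 FPKM in WT. WT replicate 2 had the lowest sum of all 6 libraries for each of these lists except blood, where WT replicate 3 was lowest. These sums are not scaled, and WT replicate 2 also had the smallest scaling factor, 0.840. No gene of these lists was at 0 in every library, and the part of any cell type in the members' levels was not tested.

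For the 3 tested members, the genes of most similar profile were found by the root mean square difference between log2(FPKM + 1) profiles centred on their means over the 6 libraries. Nearest to Tsc22d3 were Arfgap2 (0.013), Fbxo44 (0.032) and the clock gene Nr1d2 (0.049), set against a root mean square deviation of 0.21 for Tsc22d3 itself. Nearest to Cdkn1a were Ptprn (0.030), Psmg3 (0.032) and Coro1a (0.038), against 0.19 for Cdkn1a. Nearest to Errfi1 were Stmn2 (0.017), Pik3r3 (0.019) and Ttc1 (0.021), against 0.12 for Errfi1. With 6358 genes and 6 libraries, close profiles are easily found, and these distances describe the libraries only.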

How the data were processed

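RNA-seq of cerebellum gave 1 file per library, 3 HET and 3 WT, grouped by sample title. The deposited values are FPKM (the file headers say rpkm). Per the labels' protocols, total RNA libraries from a stranded kit were read as 75-base single ends, mitochondrial and ribosomal sequences were removed, 2 bases were trimmed, reads were aligned to mm10 with TopHat2 and Bowtie 1, and the authors quantified genes with Cufflinks. The labels name no version of these tools, no annotation release and no strand setting, so reads of a gene and an antisense partner may be mixed. In HET replicate 2, 40 values read as dates and were left out of every test.

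Genes averaging 1 FPKM or more were tested on log2(FPKM + 1) with limma 3.58.1 (R 4.3.3), with an intensity trend, no block and Benjamini-Hochberg adjustment over all genes. The smallest p of the two-sided exact permutation test, 3 against 3 libraries, is 0.1. Limma was tested on simulated data with independent noise for each gene, so that test does not cover shifts shared by a whole library. The prior fitted across genes weighed 54.4 degrees of freedom, beside 4 for each gene alone. Median-of-ratios factors used the tested genes. Depth came from steps in low FPKM of 4052 genes with 1 transcript. It was the depth that put the largest share of low values within 0.08 of a whole read. That share was 22.3% to 24.9% at the chosen depth, against a median of 14.3% to 15.0% over all depths tried. The depth was picked for this share, so the gap is no test of it. No effective-length correction was made, so read numbers are approximate. Promoter windows are from RefSeq (GRCm38.p6, the assembly of mm10), positions from GENCODE M21.

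The members and the 20 other lists were chosen with earlier results of these data known. Named genes were the members, listed genes past the threshold, the 3 of smallest p among receptor, supply and other induced genes, Nr3c1, Nr3c2, Hsd11b1 and Fkbp4, the highest paralog of each member, and 3 genes of nearest profile; others named were chosen after their values were seen. Tables and figures were made in Python 3.11.15 with scipy 1.17.1, numpy 2.4.6, matplotlib 3.10.9 and pandas 2.3.3.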

Additional observations from a re-analysis of the deposited data

How the results depend on the processing

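Alternatives comprised other scalings, pseudocounts, filters, a replicate block, limma without a trend and leaving out libraries. No member passed limma under any alternative that tested it, and Fkbp5, Tsc22d3, Zbtb16, Hif3a and Plin4 had the higher mean in HET under every alternative run. Cdkn1a did except without both WT replicate 2 and HET replicate 2, at -0.016, where it was under the minimum and not tested. Errfi1 turned to -0.044 after median-of-ratios scaling, -0.034 after quantile normalization and -0.078 without that pair of libraries; leaving out 1 library gave -0.044 to 0.13. Without that pair Sgk1 stood at -0.029. The median of the 9 members was 0.27 with a pseudocount of 0.1, with or without a minimum of 0.1 FPKM. That scale compresses low genes less, and no median over all genes was taken on it for comparison. With 1 library left out the median of the 9 members was 0.021 to 0.12. Over all genes, 5 passed as planned. That became 0 after median-of-ratios scaling, quantile normalization or limma without a trend (324, 344 and 203 at an unadjusted p under 0.05), 1 with no filter, 3 with a minimum and pseudocount of 0.1, and 5 to 62 with 1 library left out. It was 67 without WT replicate 2 and HET replicate 2. The labels do not say whether replicate numbers pair the libraries. Same-numbered libraries had correlations across genes of -0.28, -0.52 and 0.14 in their deviations from group means. Shifts shared by a whole library also enter these correlations, so they cannot decide whether the libraries were paired. The fit with the replicate number as a block called 13 genes and 0 members. The cause of these shifts was not tested. Depth limits Zbtb16, Fkbp5 and Hif3a most, at counting errors of up to 69.9%, 47.3% and 50%, and intervals cover counting error only.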

Other observations

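Genes of other signals that share members with the hormone response were read in the same fit. Of 11 hypoxia targets, which bear on the family of Hif3a, 7 were tested, 5 higher and 2 lower in HET, with a median log2 difference of 0.16, and none passed in limma (1 at an unadjusted p under 0.05). Of 10 p53 targets, which bear on Cdkn1a, 8 were tested, 7 higher and 1 lower, with a median of 0.11 and none passing (1 at an unadjusted p under 0.05). Of 10 PPAR and fasting targets, which bear on Pdk4 and Plin4, 2 were tested, both higher, with a median of 0.028 and none passing in limma, also at an unadjusted p under 0.05. Among all genes tested 83.1% were higher in HET, with a median of 0.083, and 3.33% had an unadjusted limma p under 0.05. The medians of these lists were 0.061, 0.015 and -0.046 after median-of-ratios scaling, against -0.0014 for all genes.

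In the integrated stress response list 7 of 10 genes were tested, all higher in HET, with a median of 0.19, and 1 passed in limma, Chac1. Of all genes tested 83.1% were higher in HET, with a median of 0.083, and 0.0786% passed in limma. Chac1, which encodes a glutathione-degrading enzyme, had 1.19, 2.73 and 0.849 FPKM in HET replicates 1, 2 and 3, against 0.605, 0.760 and 0.770 FPKM in WT replicates 1, 2 and 3 (log2 difference 0.53, SE 0.12, limma adjusted p = 0.039). The exact permutation p of Chac1 was 0.1, two-sided, and its own pooled SD within groups was 0.38 on the log2 scale. The call of Chac1 was lost in 8 of the 13 alternatives that tested it. These were median-of-ratios scaling (limma adjusted p = 0.779), quantile normalization (0.802), pseudocounts of 0.5 (0.0504) and 0.1 (0.0898), limma without a trend (0.883), no filter (0.973), a minimum and pseudocount of 0.1 (0.980), and leaving out WT replicate 2 (0.633). Without HET replicate 2 Chac1 fell under the minimum and was not tested. Over its alternatives the limma adjusted p ran from 7.38e-09 to 0.980. After median-of-ratios scaling 5 of the 7 genes were higher in HET, against 49.1% of all genes tested.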
